A study of Mus musculus with 6 samples.

Results

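The genes described here encode the subunits of heterotrimeric G proteins and the proteins that act directly around them in pancreatic fibroblasts. The rule that picks them uses symbols and no measured value, although this family was taken up with earlier results of these data known. It takes the Gα (Gna), Gβ (Gnb1 to Gnb5), Gγ (Gng), RGS (Rgs), receptor kinase (Grk) and adenylyl cyclase (Adcy) genes with a numbered or lettered symbol in the count table. The table lists 40 such genes among 14831: 13 Gα, 5 Gβ, 5 Gγ, 7 RGS, 4 GRK and 6 adenylyl cyclase genes. All 40 passed the filter on low counts and were tested. The GENCODE M21 annotation holds 68 protein-coding genes that match the rule. Those not among the 40 lie outside the class sums and shares below.

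A heterotrimeric G protein couples a receptor in the plasma membrane to enzymes inside the cell. An activated receptor makes the Gα subunit exchange GDP for GTP, Gα and the Gβγ pair then act on their own effectors, and RGS proteins end the signal by speeding GTP hydrolysis. Gαs proteins stimulate adenylyl cyclases and many Gαi proteins inhibit them, and Gαq proteins activate phospholipase Cβ. GRKs phosphorylate active receptors so that arrestins bind. The cAMP made by adenylyl cyclases activates protein kinase A (PKA), a kinase known to phosphorylate GLI2 and GLI3 and to promote their processing into repressors, which is where this machinery meets the HH pathway.

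RNA was sequenced from immortalized mouse pancreatic fibroblasts of mixed strain, with 3 libraries of genotype WT and 3 of genotype Gli2-/-;Gli3-/- (KO). According to the study's methods, such lines came from the adult pancreas of mice with floxed Gli alleles, so that controls carry the floxed alleles too, and they were sorted by flow cytometry after infection: controls with Ad5 CMV-eGFP and Lenti dsRed, KO cells with Ad5 CMV-eGFP and Ad5 CMV-Cre. Each library came from its own well of confluent cells in DMEM with calf serum, with no added ligand named, so p-values measure the spread between wells and not between independently derived lines. Age is not given in the sources used here. Effects of the viruses or of a line's own history cannot be told apart from those of the genotype.

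The targeted genes go against the genotype labels. Gli2 was counted 809, 944 and 868 times in the WT wells and 1932, 2316 and 1926 times in the KO wells, a log2 fold change of 1.05 (SE 0.04, adjusted p = 8.01e-10). Gli3 was counted 392, 416 and 398 times against 1434, 1637 and 1404 times, a log2 fold change of 1.71 (SE 0.05, adjusted p = 2.10e-11). Counts over a whole gene cannot show whether a floxed part is missing, and the study's methods state that infected cells were screened for recombination by qPCR and western blot. Were the labels of the groups exchanged, every direction below would turn. The groups are therefore called WT-labelled and KO-labelled, and each direction below is the KO-labelled wells relative to the WT-labelled wells. Totals on genes ran from 31728420 to 33905521 counts in the WT-labelled libraries and from 32781730 to 41035931 in the KO-labelled ones, and the 40 genes held between 0.417% and 0.429% of them. At these depths 3 counts, used as a floor for detection, equal 0.072 to 0.0957 CPM, the count scaled to a common library size, and intervals on counts cover counting error only.

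Fibroblast markers, with 10 of 12 analysed, summed to 46634 to 49208 CPM in the WT-labelled and 38737 to 40402 CPM in the KO-labelled libraries. Col1a1, Col1a2, Col3a1 and Vim held most of these sums, and Fap and Pdpn are absent from the deposited counts. Of the 10 analysed, 4 fell (Dcn, Col3a1, Pdgfra and Pdgfrb). S100a4 rose from 2.31 ± 0.323 to 7.36 ± 0.399 CPM, and Thy1 was counted 4, 1 and 0 times against 19, 15 and 9 times. Epithelial and acinar markers, with 5 of 10 analysed, summed to 20.2 to 22.7 CPM against 44 to 45.5 CPM, and Krt7, Cela1 and Cdh1 rose. Most of the higher sum came from Krt7, at 4.38 ± 0.472 against 23.1 ± 0.257 CPM. Sox9 of this list went the other way by less than 1.5-fold, at 8.51 ± 0.104 against 6.03 ± 0.446 CPM (log2 fold change -0.50, adjusted p = 1.73e-04). Glial and neural markers, with 4 of 6 analysed, summed to 8.27 to 8.61 CPM against 12.6 to 14.8 CPM, and Tubb3 rose. Immune markers, 3 of 8, summed to 39.5 to 45.5 against 38.4 to 40.1 CPM, endothelial markers, 1 of 6, to 0.866 to 1.6 against 0.763 to 0.939 CPM, and mural markers, 1 of 6, to 6.92 to 7.26 against 6.44 to 7.21 CPM. No analysed marker was at or under the floor in all 6 libraries, but markers absent from the deposited counts were not part of that check. The part of other cell types in the results below was not tested. In bulk RNA, fewer cells of a type and less RNA per cell cannot be told apart.

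Of the 40 genes, 11 (27.5%) passed both limits set for differential expression, 0.05 for the adjusted p and 1.5-fold for the change, against 17.7% of the 14289 genes tested. Rises numbered 9, where 11.6% of all tested genes rose, and falls numbered 2, where 6.10% fell. With the adjusted p alone 27 of the 40 passed, 17 higher and 10 lower, against 58.7% of all tested genes. The libraries of the groups did not overlap for 30 of the 40, against 64.2% of all tested genes. Whether these shares differ from the background was not tested. Their median log2 fold change was 0.09 and the median of its absolute size 0.35, where the medians over all tested genes were 0.00 and 0.22. The rises lay in the Gγ, Gαi/o, RGS and adenylyl cyclase genes, and the most abundant Gα, Gβ, Gγ, RGS, GRK and adenylyl cyclase gene each changed by less than 1.5-fold.

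**Figure D1:**
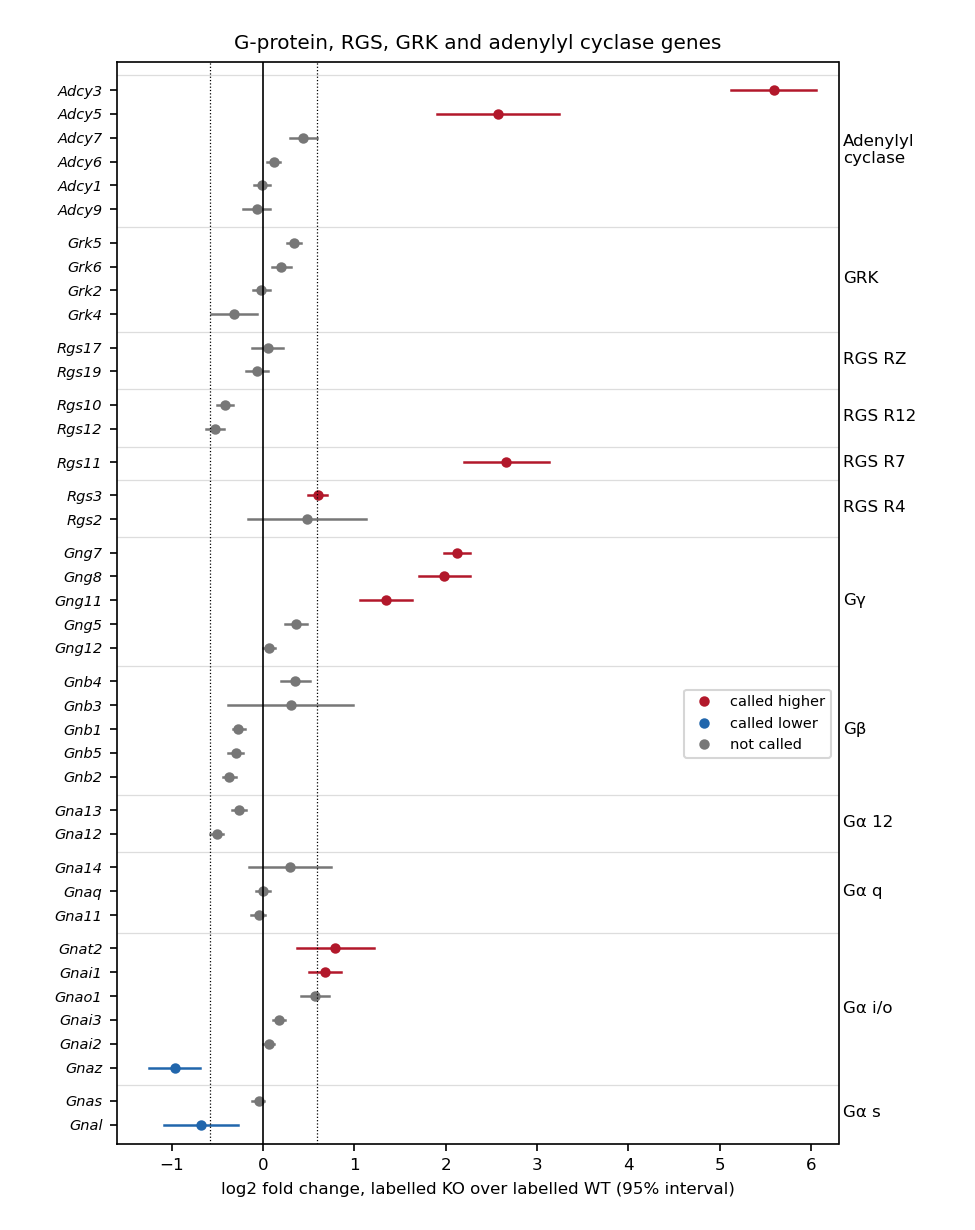
Log2 fold change of each of the 40 genes (points) with its 95% interval (lines), grouped by class, with dotted lines at the 1.5-fold limit. The 9 genes that rose reach 5.59 (Adcy3), the 2 that fell reach -0.97 (Gnaz), and all Gβ, GRK, Gαq and Gα12 points lie inside the limits.

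**Figure D2:**
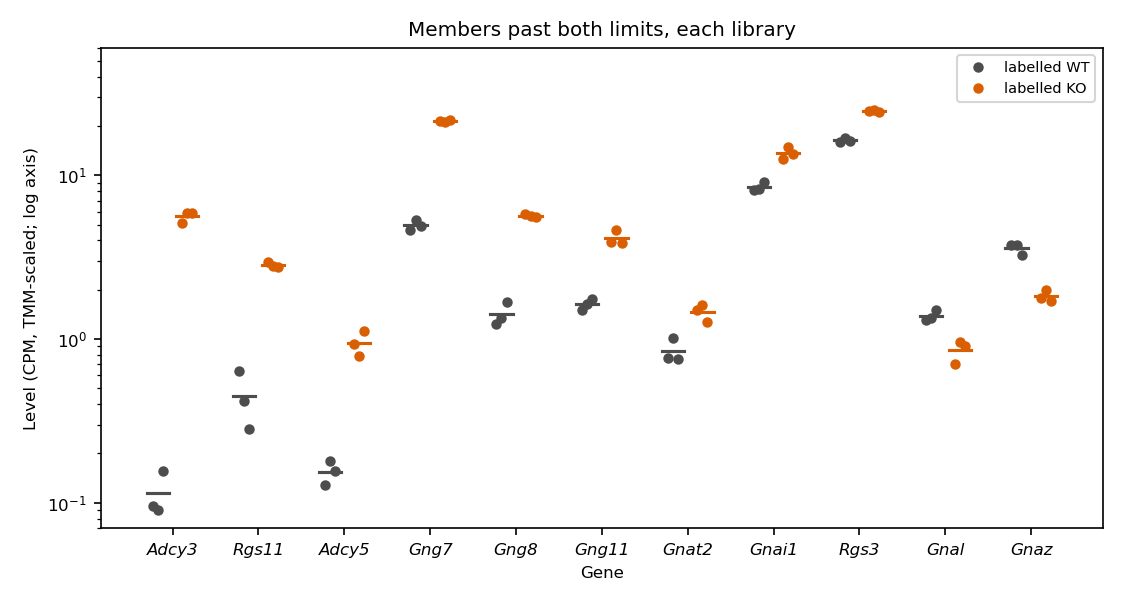
Level in each library (points, CPM on a log axis) and group mean (bars) of the 11 genes past both limits. For each of them the 3 KO-labelled wells lie on one side of the 3 WT-labelled wells, with Adcy3 near the floor of 3 counts in the WT-labelled ones.

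The genes with the clearest change in composition were Gγ genes, whose products hold Gβ at the membrane through a lipid anchor. Of 5 tested, 3 rose (Gng7, Gng8 and Gng11) and 0 fell, where 11.6% of all tested genes rose and 6.10% fell. The stretches of 250 bases before an annotated start of Gng7, Gng8 and of the cyclase gene Adcy3, described further on, are shown because these are the Gγ and cyclase genes with the lowest adjusted p among those that rose. They are RefSeq sequences (GRCm38.p6) on the gene's strand, 5′ to 3′, with CG dinucleotides in capitals. Gng7 is at chr10:81014926-81015175 on the minus strand, Gng8 at chr7:16891536-16891785 on the plus strand and Adcy3 at chr12:4133147-4133396 on the plus strand. Gng7 and Adcy3 have 2 annotated windows each, and the one with more CG is printed.
Gng7: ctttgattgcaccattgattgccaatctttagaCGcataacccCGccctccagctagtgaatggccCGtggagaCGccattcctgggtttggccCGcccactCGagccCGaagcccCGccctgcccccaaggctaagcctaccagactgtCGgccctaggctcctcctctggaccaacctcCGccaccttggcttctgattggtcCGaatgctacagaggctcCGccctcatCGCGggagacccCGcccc
Gng8: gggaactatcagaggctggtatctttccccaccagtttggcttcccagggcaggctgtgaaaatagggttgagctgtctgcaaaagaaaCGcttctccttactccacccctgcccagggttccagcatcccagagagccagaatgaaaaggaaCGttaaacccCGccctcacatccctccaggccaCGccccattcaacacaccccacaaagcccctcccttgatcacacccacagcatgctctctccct
Adcy3: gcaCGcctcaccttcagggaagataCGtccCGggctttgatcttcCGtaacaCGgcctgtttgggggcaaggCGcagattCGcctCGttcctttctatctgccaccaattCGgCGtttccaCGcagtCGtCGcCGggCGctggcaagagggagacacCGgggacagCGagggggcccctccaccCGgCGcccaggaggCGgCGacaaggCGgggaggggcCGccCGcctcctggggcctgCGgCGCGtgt
These stretches hold 15, 4 and 27 CG dinucleotides, with a GC content of 62.8%, 56% and 68.8%, in the order printed. RefSeq windows of 300 bases around the start were matched for 31 of the 40 genes, 45 windows in all. The GLI motif GACCACCCA, searched on both strands, was in 0 of them and in 83 of all 32851 windows (0.253%). The cAMP response element TGACGTCA was in 0 of the 45 and in 588 of all windows (1.79%). No match says only that these letters are not in these windows.

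Gng7 (chromosome 10 from 80948624 to 81014945, GENCODE M21 on GRCm38 as for all genes) encodes a Gγ known as the partner of Gαolf in the striatum. It was counted 145, 178 and 156 times in the WT-labelled wells and 764, 886 and 723 times in the KO-labelled wells, or 4.94 ± 0.347 and 21.6 ± 0.32 CPM (SD, n = 3 each). All KO-labelled wells lay well above all WT-labelled ones, with a log2 fold change of 2.12 (SE 0.07, adjusted p = 4.87e-11). Gng8 (chromosome 7 from 16891786 to 16895436), a Gγ known from olfactory neurons, was counted 39, 45 and 54 times against 205, 234 and 183 times. It rose from 1.43 ± 0.235 to 5.65 ± 0.126 CPM with no overlap, a log2 fold change of 1.98 (SE 0.13, adjusted p = 3.85e-08). Gng11 (chromosome 6 from 4003904 to 4008445), a farnesylated Gγ, was counted 47, 55 and 56 times against 139, 192 and 128 times. Its level went from 1.63 ± 0.128 to 4.14 ± 0.408 CPM, a log2 fold change of 1.35 (SE 0.13, adjusted p = 2.16e-06), again with the groups apart.

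The most abundant Gγ gene was Gng12. Per kb of exon, which allows genes to be compared, it stood at 43.6 ± 0.986 CPM per kb in the WT-labelled and 45.6 ± 0.572 in the KO-labelled wells, a log2 fold change of 0.06 (adjusted p = 0.0786). Gng5 was next, with 10.8 ± 0.451 and 13.8 ± 0.973 CPM per kb and a log2 fold change of 0.36 (SE 0.06, adjusted p = 1.15e-04), under the fold limit. Annotated pseudogenes of Gng5 make its counts uncertain. Summed over the 5 genes, the Gγ level was 58.4 ± 1.37 CPM per kb in the WT-labelled and 73.3 ± 1.48 in the KO-labelled wells. Gng12 supplied 74.7 ± 0.855% of that level in the WT-labelled wells and 62.2 ± 1.01% in the KO-labelled wells. The share of Gng7 went from 2.24 ± 0.127% to 7.78 ± 0.273%, that of Gng8 from 1.6 ± 0.235% to 5.07 ± 0.131% and that of Gng11 from 3.04 ± 0.172% to 6.14 ± 0.491%. Gng5 held 18.4 ± 0.698% and 18.8 ± 1.05%. The share of Gng12 was thus smaller, and those of the 3 genes that rose larger, in each KO-labelled well than in any WT-labelled well.

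Gng2, a widely studied Gγ, has no symbol in the table and lies outside the choice of genes. It is named only through its identifier in GENCODE, after its values were seen. It was counted 1, 1 and 2 times in the WT-labelled wells and 183, 211 and 148 times in the KO-labelled wells. All WT-labelled wells lie at or under the floor, against which Gng2 was at least 52.7-fold higher in the KO-labelled wells (adjusted p = 2.94e-10). At 1.12 ± 0.084 CPM per kb in those wells it stayed under Gng7, which stood at 5.7 ± 0.0846.

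**Figure D3:**
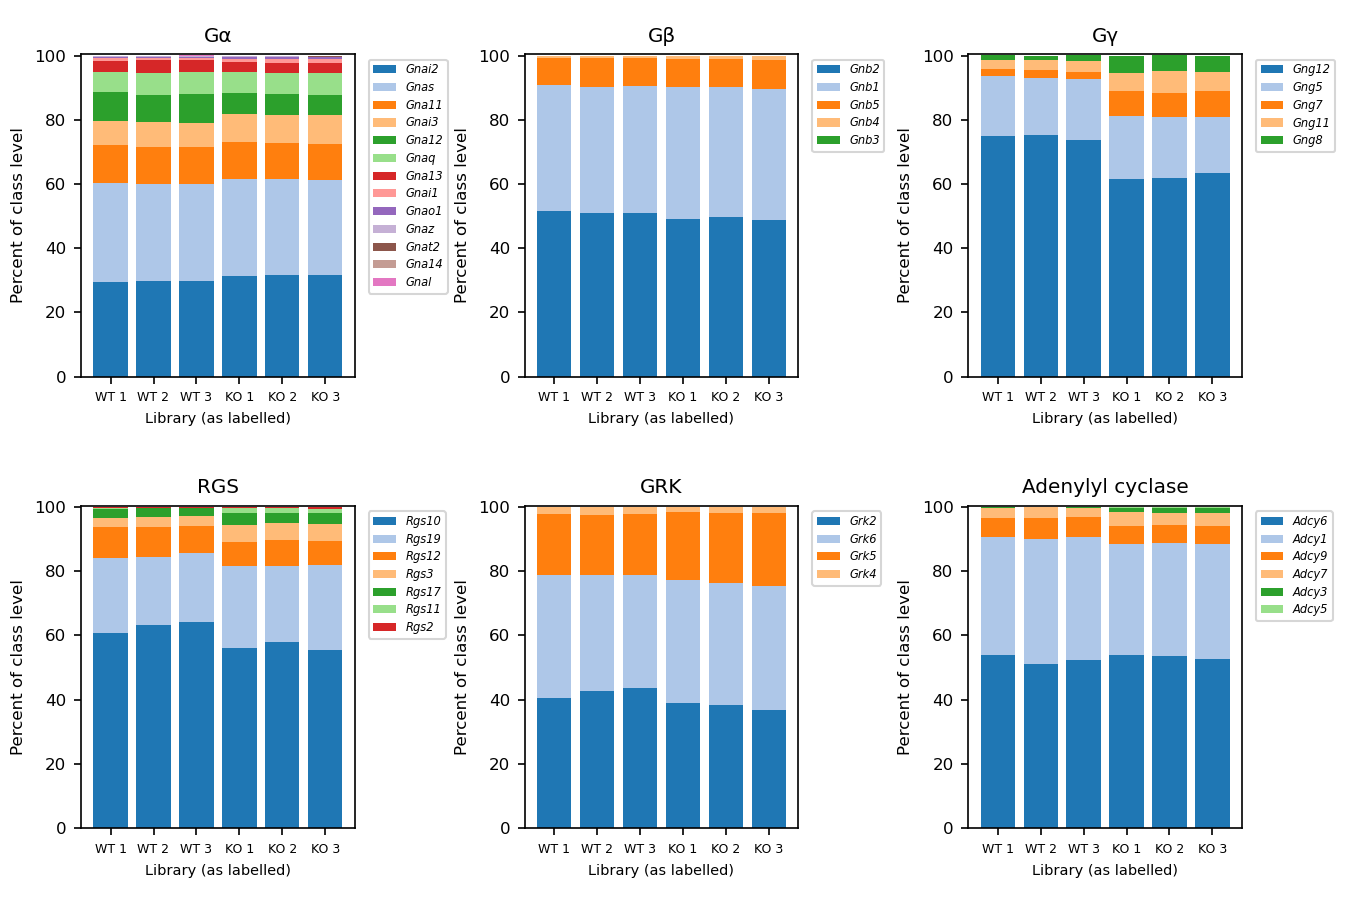
Share of each gene in the summed level of its class (CPM per kb of exon, percent) in each of the 6 libraries, 1 panel a class. Bars for Gγ show Gng12 at 73.8% to 75.4% in the WT-labelled and 61.5% to 63.4% in the KO-labelled libraries, and in the other classes the genes with the largest shares keep most of the level in every library.

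Gβ genes, whose products form the stable partner of Gγ, each changed by less than 1.5-fold. Of 5 tested, 0 passed both limits with edgeR, 4 had an unadjusted p under 0.05, and DESeq2 and limma also called 0. By the adjusted p alone 4 passed, 1 higher and 3 lower, where 58.7% of all tested genes passed. The median of the absolute log2 fold change was 0.30 for Gβ genes and 0.22 for all tested genes. Gnb2, the most abundant, had 89.8 ± 1.68 CPM per kb in the WT-labelled and 69.5 ± 2.09 in the KO-labelled wells, a log2 fold change of -0.37 (SE 0.03, adjusted p = 5.73e-07). For Gnb1, whose annotated pseudogenes make its counts uncertain, the levels were 69 ± 0.319 and 57.3 ± 1.28 CPM per kb (log2 fold change -0.27). Gnb5, which pairs with RGS proteins of the R7 family, had a log2 fold change of -0.30 (adjusted p = 2.12e-05), and Gnb4 one of 0.35 (adjusted p = 8.62e-04). Gnb3, known from cone cells, had 11, 22 and 20 counts against 23, 20 and 31, which overlap, and its 95% interval ran from -0.38 to 0.98. The summed Gβ level was 175 ± 2.01 CPM per kb in the WT-labelled wells and 141 ± 3.1 in the KO-labelled wells. The summed Gγ and Gβ levels thus differed between the groups in opposite directions, with no overlap of wells in either.

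Among Gα genes of the i/o class, most of which lower cAMP, 2 of 6 rose and 1 fell. The shares over all tested genes were 11.6% and 6.10%. Gnai1 (chromosome 5 from 18265135 to 18360355) was counted 256, 278 and 292 times in the WT-labelled and 444, 618 and 444 times in the KO-labelled wells. Its level was 8.54 ± 0.531 CPM against 13.6 ± 1.15 CPM with no overlap, a log2 fold change of 0.68 (SE 0.08, adjusted p = 1.17e-05). Gnat2 (chromosome 3 from 108092789 to 108101432), the cone transducin gene, was near 1 CPM in both groups. Its counts were 24, 34 and 24 against 53, 67 and 42, a log2 fold change of 0.79 (SE 0.19, adjusted p = 0.00368). Gnaz (chromosome 10 from 74967177 to 75016907), a Gα of this class that pertussis toxin does not modify, fell. It was counted 118, 126 and 104 times against 63, 83 and 56 times, which corresponds to 3.6 ± 0.292 CPM and 1.82 ± 0.152 CPM and to a log2 fold change of -0.97 (SE 0.13, adjusted p = 3.06e-05).

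The abundant genes of this class changed less. Gnai2 had 121 ± 0.26 CPM per kb in the WT-labelled and 125 ± 1.83 in the KO-labelled wells, a log2 fold change of 0.06 with a 95% interval from -0.00 to 0.12 (adjusted p = 0.081). Gnai3 had 30.9 ± 0.292 and 34.9 ± 0.399 CPM per kb (log2 fold change 0.17, adjusted p = 2.44e-04). Gnao1, abundant in neurons, was the gene nearest the fold limit from outside, with 662, 616 and 599 counts against 1101, 1094 and 965. All its KO-labelled wells were higher, with a log2 fold change of 0.57 (SE 0.07, adjusted p = 1.67e-05), where the limit is 0.58. It passed the limit at 0.63 without WT-labelled library 1, at 0.63 without KO-labelled library 2, at 0.63 under upper-quartile scaling and at 0.60 under total-count scaling. Nearest from inside was Rgs3, described with the RGS genes.

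Of the Gαs genes, Gnas was the most counted of all 40. It had 43889, 45666 and 43863 counts in the WT-labelled wells and 48487, 55215 and 42599 in the KO-labelled wells. That is 123 ± 1.7 and 119 ± 3.53 CPM per kb, a log2 fold change of -0.05 with a 95% interval from -0.12 to 0.01 (adjusted p = 0.132). Gnas is an imprinted locus with several transcripts, and 13.1% of its exon bases overlap Gm20721 on the opposite strand. The other gene of the class, Gnal, encodes Gαolf, the Gαs of olfactory neurons and striatum, and was near 1 CPM. Its counts were 41, 45 and 48 in the WT-labelled and 25, 40 and 30 in the KO-labelled wells, or 1.39 ± 0.104 and 0.858 ± 0.134 CPM. It fell by 0.68 on the log2 scale (SE 0.19, adjusted p = 0.00745), and without KO-labelled library 1 its log2 fold change of -0.57 (adjusted p = 0.0327) was inside the fold limit. On 7.63% of its exon bases Gnal overlaps Mppe1 on the opposite strand.

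Of the 3 Gαq genes tested, 0 passed with edgeR, and 0 had an unadjusted p under 0.05 or were called by DESeq2 or limma. Gna11, the most abundant, had 47 ± 1.4 and 45.3 ± 1.48 CPM per kb, with a 95% interval of the log2 fold change from -0.13 to 0.02. For Gnaq that interval ran from -0.08 to 0.07, and for the rarer Gna14 from -0.15 to 0.74. Both Gα12 genes were lower in every KO-labelled well, within the fold limit: with edgeR 0 of 2 passed both limits, 2 had an unadjusted p under 0.05, and DESeq2 and limma called 0. Gna12 had 35.5 ± 0.527 CPM per kb in the WT-labelled and 24.9 ± 0.88 in the KO-labelled wells, a log2 fold change of -0.51 (SE 0.03, adjusted p = 5.99e-08). On 13.3% of its exon bases Gna12 overlaps Amz1 on the opposite strand, which was at 0.312 ± 0.0914 and 0.415 ± 0.178 CPM. Gna13 had a log2 fold change of -0.26 (adjusted p = 2.31e-05).

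Summed over the 13 Gα genes, the level was 405 ± 2.15 CPM per kb in the WT-labelled wells and 397 ± 7.81 in the KO-labelled wells, and the wells overlap. Gnas and Gnai2 held 30.4 ± 0.266% and 29.7 ± 0.211% of it in the WT-labelled wells, and 29.9 ± 0.303% and 31.6 ± 0.161% in the KO-labelled wells. Which of them is higher depends on the length used: with the longest transcript in place of all exon bases, Gnas held 47.8% and 46.8%, and Gnai2 28.1% and 29.8%.

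Of the 7 RGS genes tested, 2 rose and 0 fell, where 11.6% of all tested genes rose and 6.10% fell. Rgs11 (chromosome 17 from 26202951 to 26211324), of the R7 family that works with Gβ5 and is known from the retina, was counted 20, 14 and 9 times in the WT-labelled wells and 105, 116 and 91 times in the KO-labelled wells. It went from 0.446 ± 0.18 to 2.84 ± 0.113 CPM, a log2 fold change of 2.66 (SE 0.21, adjusted p = 3.26e-07). The ratio of pooled counts was 6.38, with a 95% counting interval from 4.63 to 8.99. On its WT-labelled wells alone Rgs11 would not have passed the filter on low counts. Rgs3 (chromosome 4 from 62559847 to 62704001), an R4 family protein that acts on Gαi and Gαq, was counted 501, 568 and 519 times against 882, 1047 and 808 times. Its level was 16.4 ± 0.502 CPM against 24.8 ± 0.33 CPM, with no overlap. The log2 fold change of 0.60 (SE 0.05, adjusted p = 3.80e-07) is just past the limit, and without WT-labelled library 1 it was 0.58 and inside it.

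Rgs10, a small protein of the R12 family and the most abundant RGS gene, moved the other way within the fold limit. It had 32.4 ± 1.26 CPM per kb in the WT-labelled and 24.2 ± 0.463 in the KO-labelled wells, a log2 fold change of -0.42 (SE 0.04, adjusted p = 1.58e-06). The other R12 gene, Rgs12, had a log2 fold change of -0.53 (adjusted p = 7.85e-07). With edgeR 0 of these 2 passed both limits, 2 had an unadjusted p under 0.05, and DESeq2 and limma called 0. Of the RZ genes Rgs19 and Rgs17, 0 passed with edgeR, 0 had an unadjusted p under 0.05, and the other tools called 0. Rgs19, the more abundant, had 11.4 ± 0.524 and 10.8 ± 0.606 CPM per kb, with a 95% interval of the log2 fold change from -0.19 to 0.05. Rgs2, which acts mainly on Gαq, had 15, 13 and 11 counts against 15, 22 and 25, too few to place its interval of -0.17 to 1.13 on one side of 0.

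The summed RGS level was 51.6 ± 0.504 CPM per kb in the WT-labelled wells and 42.9 ± 0.179 in the KO-labelled wells. Rgs10 held 62.7 ± 1.83% and 56.4 ± 1.28% of it, Rgs3 2.94 ± 0.0805% and 5.36 ± 0.0862%, and Rgs11 0.206 ± 0.0851% and 1.57 ± 0.059%. The table holds 2 more RGS genes without a symbol, outside the choice of genes and named after their values were seen. Rgs20, of the RZ family, was counted 25, 23 and 19 times against 80, 90 and 57 times, a log2 fold change of 1.57 (SE 0.19, adjusted p = 1.59e-05). Rgs7, the other R7 gene, was counted 2, 0 and 1 times against 12, 4 and 10 times and did not pass the filter. Against the floor it was at least 2.64-fold higher in the KO-labelled wells.

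GRK genes stayed within the fold limit. With edgeR 0 of 4 passed both limits, 3 had an unadjusted p under 0.05, and DESeq2 and limma called 0. Grk2, the kinase that Gβγ brings to the membrane, was the most abundant in the WT-labelled wells, with 17.4 ± 0.526 CPM per kb there and 17.2 ± 0.806 in the KO-labelled wells. Its log2 fold change was -0.02, with a 95% interval from -0.11 to 0.07 and a sign that turned under upper-quartile and total-count scaling and without KO-labelled library 3. In the KO-labelled wells Grk6 stood at 17.3 ± 0.38 CPM per kb, a difference from Grk2 smaller than their spread. The log2 fold changes of Grk5, Grk6 and Grk4 were 0.34, 0.20 and -0.32.

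Among adenylyl cyclase genes, 2 of 6 rose and 0 fell, and the genes that rose, Adcy3 and Adcy5, were the rarest of the class in the WT-labelled wells. These genes passed the filter on low counts only through the KO-labelled wells. A cyclase gene that rare in the WT-labelled wells could be tested only if it was higher in the KO-labelled wells. The link between rarity and a rise is therefore partly set by the filter. Adcy3 (chromosome 12 from 4133103 to 4213525), a cyclase known from olfactory neurons and from the primary cilia of neurons, was counted 3, 3 and 5 times in the WT-labelled wells and 182, 246 and 193 times in the KO-labelled wells. It was close to the floor in the first group, at 0.114 ± 0.0371 CPM, and at 5.63 ± 0.425 CPM in the second. The log2 fold change was 5.59 (SE 0.21, adjusted p = 2.88e-10), and the ratio of pooled counts, 11 against 621, was 49.6 with a 95% counting interval from 27.5 to 99.9. Leaving out 1 library at a time moved the log2 fold change between 5.44 and 5.87, where the upper value leaves out WT-labelled library 3 and rests on WT-labelled wells of 3 counts each, at the floor. Of its exon bases, 22.1% overlap Cenpo on the opposite strand, and whether counting used strand is not given in the sources used here. Cenpo was counted 251, 308 and 262 times against 352, 397 and 324 times, a log2 fold change of 0.20.

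Adcy5 (chromosome 16 from 35154877 to 35305738), the main cyclase of striatum and one of those of the heart, was counted 4, 6 and 5 times against 33, 33 and 37 times. It went from 0.154 ± 0.0258 to 0.948 ± 0.165 CPM, a log2 fold change of 2.57 (SE 0.31, adjusted p = 1.30e-05). The ratio of pooled counts was 6.03, with a 95% counting interval from 3.49 to 11.2. Most of the cyclase level came from Adcy6, which Gαi and calcium inhibit, and Adcy1, a calmodulin-stimulated cyclase known from brain. Adcy6 had 29.6 ± 0.665 CPM per kb in the WT-labelled and 32.1 ± 1.1 in the KO-labelled wells, a log2 fold change of 0.12 (SE 0.03, adjusted p = 0.00878). Adcy1 had 21.4 ± 0.771 and 21.3 ± 1.29 CPM per kb, with a 95% interval of the log2 fold change from -0.10 to 0.08. Adcy7 had a log2 fold change of 0.44 (adjusted p = 1.44e-04) and Adcy9 one of -0.07 (adjusted p = 0.383). Adcy3 supplied 0.0323 ± 0.0103% of the summed cyclase level in the WT-labelled wells and 1.5 ± 0.102% in the KO-labelled wells. The sum was 56.4 ± 0.402 and 60.2 ± 2.76 CPM per kb.

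Genes that act after or beside these proteins were taken from 5 lists, with 57 of 70 listed genes tested. Of them 14 (24.6%) passed both limits, 8 higher and 6 lower, where 17.7% of all tested genes passed, 11.6% higher and 6.10% lower. The phosphodiesterases that degrade cAMP held most of the rises: of 11 tested, 6 rose and 0 fell, and 10 had an adjusted p under 0.05, all of them higher. Of all tested genes, 11.6% rose and 58.7% had such an adjusted p in either direction. Pde1a, a phosphodiesterase that calmodulin activates, was counted 406, 430 and 408 times in the WT-labelled wells and 1533, 1761 and 1335 times in the KO-labelled wells. Its level was 12.9 ± 0.0889 CPM against 42 ± 1.44 CPM, a log2 fold change of 1.71 (SE 0.05, adjusted p = 1.50e-11). Pde3b was counted 0, 2 and 3 times against 23, 34 and 35 times (adjusted p = 1.96e-05), and the mean of its KO-labelled wells was 9.04-fold above the floor. Pde8b was counted 26, 20 and 6 times against 35, 75 and 48 times, a wide spread, with a log2 fold change of 1.40 (SE 0.36, adjusted p = 0.00436). The other genes of the list that rose were Pde10a, Pde3a and Pde1b, the last with 9, 12 and 10 counts against 17, 23 and 25. Pde3b passed the filter only through the KO-labelled wells. Pde1b and Pde8b would also not have passed it on their WT-labelled wells alone. With at least 10 counts required in every library, Pde1b, Pde3b and Pde8b were no longer called. Pde3a did not pass without WT-labelled library 1 or KO-labelled library 3, and Pde1b did not pass without WT-labelled library 1, WT-labelled library 3 or KO-labelled library 3, nor with DESeq2.

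The falls lay mostly among arrestins, G-protein chaperones and modulators, with 4 of 13 tested lower and 0 higher. Of all tested genes, 6.10% fell and 11.6% rose. Arrb1, one of the arrestin genes that act on most receptors, was counted 2463, 2609 and 2646 times against 1307, 1644 and 1282 times. Every KO-labelled well was lower, at 38.4 ± 1.32 CPM against 79.8 ± 2.7 CPM, a log2 fold change of -1.05 (SE 0.04, adjusted p = 2.72e-10). For the other arrestin gene, Arrb2, it was -0.16 (adjusted p = 0.0453). Gprasp2 and Gprasp1, which encode receptor sorting proteins, fell by 1.66 (adjusted p = 0.00212) and 0.85 (adjusted p = 1.05e-07) on the log2 scale, where Gprasp2 had 17, 12 and 19 counts against 7, 4 and 6. Gprasp2 passed the filter on low counts only through the WT-labelled wells. A gene that rare in the KO-labelled wells could be tested only if it was higher in the WT-labelled ones. Ccdc88c fell by 0.61, just past the limit, and was inside it under upper-quartile and total-count scaling and without WT-labelled library 3.

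Of 8 PKA genes tested 1 fell: Prkar1b, a regulatory subunit with 10, 14 and 16 counts against 6, 12 and 6 (log2 fold change -0.91, adjusted p = 0.0387). That call was lost with DESeq2, under upper-quartile scaling and without WT-labelled library 2 or 3 or KO-labelled library 1 or 3. Prkar1b, like Gprasp2, passed the filter on low counts only through the WT-labelled wells. By the adjusted p alone 5 of the 8 PKA genes passed, 4 higher and 1 lower, where 58.7% of all tested genes passed. The 4 higher genes stayed within the fold limit. They were the inhibitor gene Pkia at 0.46, the regulatory subunits Prkar2b at 0.39 and Prkar2a at 0.34, and the catalytic subunit Prkacb at 0.12 on the log2 scale. The abundant PKA subunit Prkar1a had a log2 fold change of -0.00, with a 95% interval from -0.07 to 0.06. Of 14 cAMP response genes tested, 2 rose, Fos at 0.76 (adjusted p = 8.84e-04) and Nr4a1 at 0.68 (adjusted p = 2.23e-04) on the log2 scale, and Ppargc1a fell by 0.75 (adjusted p = 0.0157). The call of Ppargc1a was lost with DESeq2 and without WT-labelled library 2 or 3, and that of Nr4a1 without WT-labelled library 3. By the adjusted p alone 7 of the 14 passed, 3 higher and 4 lower, where 58.7% of all tested genes passed. Among the lower ones was Sik1, a kinase gene that cAMP induces, at -0.56 (adjusted p = 2.31e-08) with no overlap of wells. Among the 11 other effectors tested (phospholipases Cβ and others), 0 passed both limits with edgeR, 5 had an unadjusted p under 0.05, and DESeq2 and limma called 0. Arhgef25 of this list was near the fold limit, at 274 ± 4.65 CPM against 400 ± 5.26 CPM with no overlap of wells. Its log2 fold change was 0.55 (SE 0.03, adjusted p = 5.14e-09), and it passed under upper-quartile scaling. The count of 14 is sensitive to WT-labelled library 3, without which 9 passed.

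**Figure D4:**
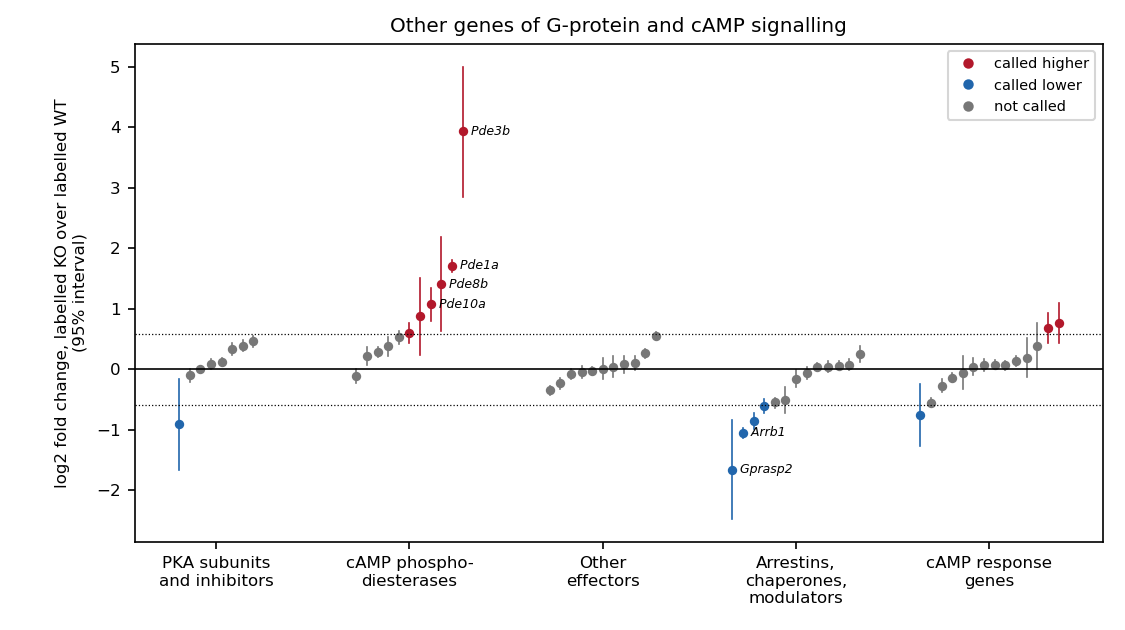
Log2 fold change (points) and 95% interval (lines) of the 57 tested genes of the 5 lists, with dotted lines at the 1.5-fold limit. The 6 phosphodiesterase genes past the limit all lie above 0 and the 4 arrestin, chaperone and modulator genes past it all lie below 0, while the highest point, the fitted 3.93 of Pde3b, has its WT-labelled wells at or under the floor.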

How the data were processed

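RNA was prepared from polyadenylated transcripts of 6 wells. The authors deposited raw counts per gene and voom-transformed values on the log2 CPM scale (limma). The submitters' processing notes name STAR 2.7.2b, featureCounts, limma and GRCm38.p6, and the strand setting is not given in the sources used here. Groups were taken from the genotype labels, and libraries were numbered in accession order within a group.

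The main test was edgeR 4.0.16 under R 4.3.3 (TMM scaling, filterByExpr, quasi-likelihood F test, Benjamini-Hochberg adjustment over 14289 genes), with a call at an adjusted p under 0.05 and at least 1.5-fold. SE was the size of the log2 fold change divided by the square root of F. CPM used TMM-scaled library sizes, and levels per kb used all exon bases of GENCODE M21. Pooled count ratios carry exact 95% intervals. With 3 libraries against 3, an exact permutation test cannot give p under 0.1. No replicate pair differed by less than sampling noise (chi-square per degree of freedom 2.47 to 7.53), and the biological coefficient of variation was 3.74%. The edgeR step was tested on simulated data.

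Alternatives were scaling by RLE, upper quartile or total count, other filters and fold limits, DESeq2 1.42.0, limma 3.58.1 on counts and on the deposited log2 values, leaving out each library, and longest-transcript lengths. The members and lists were chosen with earlier results of these data known. Named were the members past both limits, the highest per kb in each class, those nearest the fold limit, and up to 3 called genes with the largest change per list. Other genes named were chosen after their values were seen.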

Additional observations from a re-analysis of the deposited data

How the results depend on the processing

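The 11 calls among the 40 genes were made again by DESeq2, by limma on the counts and on the deposited log2 values, under each other scaling and with no filter. No scaling moved the median log2 fold change of all genes by over 0.06. Without the fold limit 27 passed, 17 higher and 10 lower, and with a 2-fold limit 6 passed with edgeR, of which 0 were lower. Requiring at least 10 counts in every library left 37 of the 40 tested and 8 called, because Adcy3, Adcy5 and Rgs11 were no longer tested. With each library left out, between 10 and 12 were called and between 1 and 2 of them were lower. Rgs3 was lost without WT-labelled library 1 and Gnal without KO-labelled library 1, and Gnao1 was gained in the 4 settings given with it. Of the genes on the 5 lists, 9 passed with at least 10 counts in every library, 34 without the fold limit, 6 with a 2-fold limit, and between 9 and 14 with each library left out. The requirement of 10 counts lost Gprasp2, Pde1b, Pde3b, Pde8b and Prkar1b. Without WT-labelled library 3 the genes lost were Ccdc88c, Nr4a1, Pde1b, Ppargc1a and Prkar1b. The sign of Grk2 turned under upper-quartile scaling (0.04), total-count scaling (0.01) and with libraries left out (-0.06 to 0.01), and the cause was not tested. Longest-transcript lengths moved the class shares, with Gng12 at 74% and 60.8% of the Gγ level, and Gng8 at 2.39% and 7.44%. No paired analysis was possible because the labels carry no replicate number shared between the groups. At 3 counts or fewer in every library of a group, depth does not settle the size of the fold. The fold against the floor sets the mean of the other group against the floor and leaves out counting error.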
